A study of Homo sapiens with 6 samples.

Results

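The genes described here encode the proteins of the mitochondrial ribosome whose symbols are MRPL or MRPS followed by a number. A gene was taken if at least 1 probe set of the array was listed to it alone, and it was represented by the brightest of these over the 6 arrays. This gave 76 genes of 18244 with a probe set of their own, 48 MRPL genes (large subunit) and 28 MRPS genes (small subunit). The gene table held 77 protein-coding genes with such symbols. The remaining one, MRPL53, had only probe sets that were also listed to a neighbouring gene, and the antisense gene MRPL20-AS1 was left out. All 76 passed the filter on low values, so no member was lost.

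The study used P493-6, a human B cell line labelled as B-cell lymphoma that carries a c-Myc transgene repressed by tetracycline. All 6 samples were of this line, grown in RPMI medium with serum, and were hybridised 1 to an Affymetrix array. The 3 groups, each in biological duplicate according to the design text, were low-Myc (transgene released for 0 h), mid-Myc (1 h) and high-Myc (24 h). For mid-Myc one protocol gives 0 h and another 1 h, and the latter was used. The mid-Myc samples are numbered apart from the others, so a separate batch and the effect of 1 h of release cannot be told apart.

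The mitochondrial ribosome translates the few messages encoded by mitochondrial DNA, which specify core subunits of the respiratory chain and the ATP synthase. Its RNA is made in the organelle, whereas all of its proteins are encoded in the nucleus, made on cytosolic ribosomes and imported. Some of these proteins descend from bacterial ribosomal proteins and others are found in mitochondria alone, and c-Myc is a transcription factor that binds the E-box CACGTG and is known to promote ribosome production and mitochondrial biogenesis.

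Deposited values were MAS5 intensities, and they were read on 2 scales. Synthetic ERCC RNAs had been added by cell number, so subtracting a curve through them on each array gave a per-cell scale. The equal-median scale set the median human probe set of all arrays to 1 level, and so shows a gene relative to that median. As deposited the median lay between 44.54 (mid-Myc replicate 2) and 50.25 (low-Myc replicate 2), not far above the filter on low values at 33.8. Differences are log2, SE come from 1 limma fit over the 6 arrays and 12198 genes, and called means a two-sided adjusted p under 0.05. In these bulk samples fewer cells carrying a transcript and less RNA per cell cannot be told apart.

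The arrays of each group agreed closely (r = 0.996 to 0.997 over all genes), and the members differed between arrays of a group by at most 0.32. Before correction, the 34 ERCC probe sets within the members' range of brightness were lower by -1.35 in high-Myc than in low-Myc. After the curve they stood at -0.16 (SD 0.19), and at -0.02 (SD 0.13) for mid-Myc against low-Myc. MYC itself had intensities of 10472 and 10279 in low-Myc, 10031 and 9941 in mid-Myc and 11888 and 11979 in high-Myc. It was called higher at 24 h on the per-cell scale (0.96 ± 0.028 SE) and the equal-median scale (0.34 ± 0.031 SE). At 1 h MYC was called higher per cell (0.13, limma adjusted p = 0.00282) and on the equal-median scale (0.09, limma adjusted p = 0.0339). Both calls were lost in a limma fit without the variance trend (adjusted p = 0.0696 and 0.293). The equal-median difference at 1 h took the opposite sign under 3 other scalings. Whether so bright a probe set shows the full size of a change was not tested. Of 6 B cell markers measured, 5 were called lower at 24 h on the equal-median scale and 1, PAX5, higher. Of all genes tested, 26% were called lower on that scale and 37.7% higher. Per cell, 4 of the 6 markers were called higher and 1, CD79B, lower (90.8% and 2.53% of all genes tested were). Group means in low-, mid- and high-Myc were 3420, 3805 and 1100 for CD79B and 835, 817 and 903 for PAX5. All 6 T cell markers had group means at or below 65.9, of which CD3D lay at or below 20.6. Of the monocyte markers LYZ read 1199, 1259 and 387, while CD14, CSF1R and FCGR3A were at or below 48.7. Of 4 plasma cell markers XBP1 rose by 0.55 and TNFRSF17 fell by 0.20 at 24 h on the equal-median scale. PRDM1 (0.05) and SDC1 (0.18) were not called there. On the same scale PRDM1 rose by 0.62 at 1 h and fell by 0.57 from 1 h to 24 h. Per cell all 4 were called higher at 24 h. The ratio of 3' to 5' ACTB signal was 2.81 ± 0.07 (SD, n = 2) in low-Myc and 3.56 ± 0.16 (SD, n = 2) in high-Myc, against 1.17 ± 0.064 and 1.18 ± 0.035 for GAPDH. The part of these markers and of RNA quality in the results was not tested.

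The members were bright. Their mean intensities ran from 63.7 (MRPL2) to 2375 (MRPL51), with a median of 535 and quartiles of 373 and 834, against a median of 171 over all genes tested. Of the 23 background probe sets the brightest read 694 and the next 194. In 70 members even the dimmest group mean lay above 194. The other 6 were MRPL2, MRPL4, MRPL12, MRPL38, MRPS17 and MRPS28, whose low readings can include background signal, which was not subtracted.

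Promoters were read from RefSeq (GRCh38.p14) for 68 of the 76 members. The 100 bases before the annotated start are shown for members with large 24 h differences (MRPL24, MRPS17 and MRPL3), for the lowest member of each subunit (MRPL40 and MRPS6) and for MRPL36 and MRPS2, the members named for large rises that hold an E-box. Capitals mark matches on either strand to CACGTG (E-box), CCGGAAG (ETS), AAGATGGCG (YY1) or the palindromic NRF1 motif, and a stretch without capitals holds none of these letters.
MRPL24: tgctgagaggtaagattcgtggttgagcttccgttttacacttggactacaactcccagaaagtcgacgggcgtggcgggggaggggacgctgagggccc
MRPS17: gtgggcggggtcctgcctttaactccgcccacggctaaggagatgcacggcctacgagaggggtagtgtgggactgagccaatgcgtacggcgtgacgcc
MRPL3: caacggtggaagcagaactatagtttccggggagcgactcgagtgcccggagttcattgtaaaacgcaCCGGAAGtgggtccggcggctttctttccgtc
MRPL36: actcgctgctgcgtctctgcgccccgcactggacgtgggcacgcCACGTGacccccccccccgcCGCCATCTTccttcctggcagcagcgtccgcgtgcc
MRPS2: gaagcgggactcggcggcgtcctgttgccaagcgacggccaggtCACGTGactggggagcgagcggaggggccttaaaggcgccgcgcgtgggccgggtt
MRPL40: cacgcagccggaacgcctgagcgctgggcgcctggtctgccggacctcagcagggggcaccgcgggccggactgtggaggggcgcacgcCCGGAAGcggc
MRPS6: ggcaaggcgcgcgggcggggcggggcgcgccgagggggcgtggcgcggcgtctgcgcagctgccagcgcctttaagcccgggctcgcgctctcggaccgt
The MRPL24 stretch is chr1:156741089-156741188 (minus strand) and that of MRPS17 chr7:55951777-55951876 (plus strand). The MRPL3 stretch is chr3:131502972-131503071 (minus strand), that of MRPL36 chr5:1799838-1799937 (minus strand) and that of MRPS2 chr9:135499865-135499964 (plus strand). The MRPL40 stretch is chr22:19432445-19432544 (plus strand) and that of MRPS6 chr21:34073478-34073577 (plus strand). Over the full windows of 300 bases (250 before and 50 after each start), CACGTG was found for 9 of 68 members, 13.2%, against 12.5% of the 9953 tested genes with a window and 8.77% of all 27305 genes with one. The 9 were MRPL14, MRPL22, MRPL36, MRPL37, MRPL45, MRPL49, MRPS2, MRPS18C and MRPS33. CCGGAAG was found for 29 members (42.6%, against 21.7% of tested genes and 12.2% of all). AAGATGGCG was found for 13 members (19.1%, against 4.6% and 2.14%), and the NRF1 motif for 1, MRPL17 (1.47%, against 2.59% and 1.52%). No member window held the overlapping form of the ETS and YY1 letters. A match describes the letters and is not a shown binding site.

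After 24 h of c-Myc release, transcripts of the mitochondrial ribosome rose as a group. Per cell, 76 of 76 members were called higher in limma (90.8% of all genes tested were) and 0 lower (2.53% of all). The median member stood 2.16 higher, 4.47-fold, against 0.97 or 1.96-fold over all genes tested, and 74 members were at least 2-fold higher. The smallest per-cell difference was 0.84 for MRPL40 and the largest 3.44 for MRPL24. Since nearly all genes were higher per cell, the count alone does not set the members apart.

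On the equal-median scale, 74 of 76 members were called higher (37.7% of all genes tested were) and 2 lower, MRPL40 and MRPS6 (26% of all were). The median was 1.02 on this scale, 2.03-fold, against 0.05 over all genes. On the same scale 35 members (46.1%) lay in the top 10% of all genes and 0 in the lowest 10%. Genes of the members' own middle brightness (n = 1980) had a median of 0.15, and per cell of 1.29. Centring on the median tested gene instead moved the median of all genes from 0.05 to -0.15 and left 69 members higher and 2 lower.

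**Figure D1:**
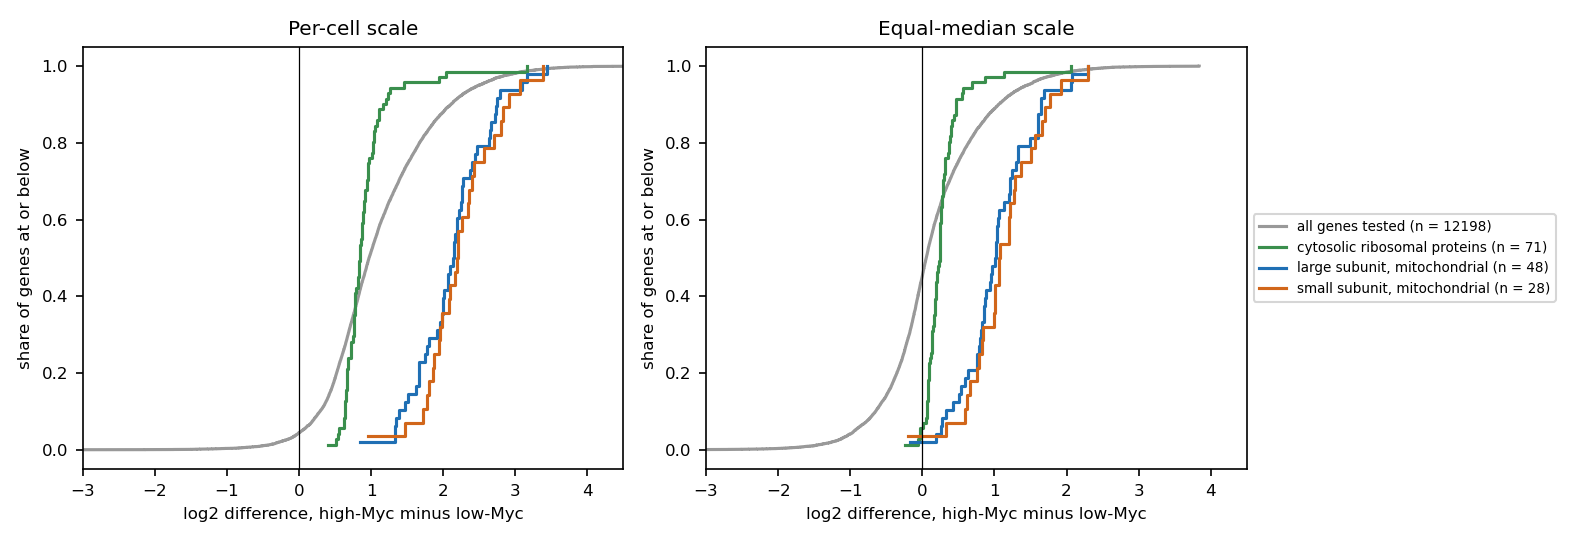
Cumulative share of genes (vertical axis) at or below each log2 difference of high-Myc minus low-Myc (horizontal axis), with per-cell values on the left and equal-median values on the right. Both subunits of the mitochondrial ribosome lie to the right of all 12198 genes over most of their range, with equal-median medians of 1.01 (large) and 1.07 (small), whereas the cytosolic ribosomal proteins have a median of 0.24.

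MRPL24 rose most in the large subunit. It is the relative of the bacterial protein L24, which binds rRNA early in assembly. Its intensities were 263 and 230 in low-Myc, 272 and 251 in mid-Myc, and 1111 and 1079 in high-Myc. The high-Myc arrays lay far above the others, and the low-Myc and mid-Myc arrays overlapped. The equal-median difference was 2.29 ± 0.075 SE (limma adjusted p = 1.165e-11), and per cell MRPL24 was 10.9-fold higher.

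MRPL15, a relative of bacterial L15, read 512 and 484 in low-Myc, 529.8 and 507 in mid-Myc, and 1955 and 1839 in high-Myc. MRPL3, whose bacterial relative reaches towards the peptidyl transferase centre, read 728 and 685 in low-Myc, 704 and 713 in mid-Myc, and 2650 and 2682 in high-Myc. Both followed the course of MRPL24, with the high-Myc arrays well above and the other 4 arrays close together. Their equal-median differences were 2.07 ± 0.058 SE and 2.05 ± 0.054 SE, with limma adjusted p of 3.554e-12 and 2.126e-12. The other probe set of MRPL15, with a mean intensity of 35.1 close to the filter, gave 0.59, and that of MRPL3 gave 2.04. MRPL36, a small protein related to bacterial L36, read 1233 and 1249.6 in low-Myc, 1134 and 1213 in mid-Myc, and 3438 and 3831 in high-Myc. It rose by 1.69 ± 0.062 SE on the equal-median scale (limma adjusted p = 3.404e-11) and 6.27-fold per cell.

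At the other end of the large subunit stood MRPL40, a protein with no bacterial relative. Its intensities were 1336 and 1246 in low-Myc, 1507 and 1495 in mid-Myc, and 1025 and 1054 in high-Myc. The high-Myc arrays were the lowest and the mid-Myc arrays the highest, with no overlap between groups. Per cell MRPL40 was still 1.79-fold higher at 24 h, while on the equal-median scale it differed by -0.17 ± 0.054 SE (limma adjusted p = 0.0126). That call was lost without low-Myc replicate 1 (-0.12, adjusted p = 0.118), without high-Myc replicate 1 (-0.14, adjusted p = 0.0925) and in a limma fit without the variance trend (adjusted p = 0.0655).

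MRPL10 anchors the ribosomal stalk. It read 376 and 347 in low-Myc, 412 and 414 in mid-Myc, and 372 and 375 in high-Myc, so that its low-Myc and high-Myc arrays overlapped as deposited. It rose 2.52-fold per cell, and relative to the median by 0.19 ± 0.067 SE (limma adjusted p = 0.0237). That call was lost without low-Myc replicate 2 (adjusted p = 0.17), high-Myc replicate 1 (0.052) or high-Myc replicate 2 (0.101). As deposited the difference was 0.05 (adjusted p = 0.465), and the equal-median value became -0.01 under quantile normalization and with the tested genes as the centre. MRPL12, which forms the mobile stalk on MRPL10 and is also known to bind the mitochondrial RNA polymerase, read 192 and 182 in low-Myc, 192 and 185 in mid-Myc, and 431 and 424 in high-Myc. Its low-Myc and mid-Myc readings also lie below 194. Its equal-median rise was 1.33 ± 0.069 SE (limma adjusted p = 8.157e-10), with both high-Myc arrays above all others. The other probe set of MRPL12 gave 1.90. Both stalk genes rose per cell, and their difference from each other was not tested.

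MRPL54, a protein of the large subunit without a bacterial relative, read 823 and 788 in low-Myc, 1089.6 and 1045 in mid-Myc, and 864 and 883 in high-Myc. Its mid-Myc arrays were the highest. At 24 h it was 2.51-fold higher per cell, and 0.26 ± 0.054 SE higher relative to the median (limma adjusted p = 0.000869). With the tested genes as the centre that fell to 0.05 (adjusted p = 0.289) and quantile normalization to 0.05 (adjusted p = 0.322).

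In the small subunit MRPS17 rose most. It is the relative of bacterial S17, an early-binding rRNA protein. Its intensities were 126 and 120.4 in low-Myc, 126 and 110 in mid-Myc, and 550 and 545 in high-Myc. The low-Myc and mid-Myc arrays overlapped and the high-Myc arrays stood alone. The equal-median difference was 2.29 ± 0.078 SE (limma adjusted p = 1.747e-11), and per cell it was 10.4-fold. The low-Myc and mid-Myc readings lie below 194, within the range of the background probe sets, so the size of its rise is less certain. Its probe set is of the x_at type, which may also match other transcripts, and the other probe sets of MRPS17 gave 1.42 and 1.98.

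MRPS25 and MRPS26, small-subunit proteins without bacterial relatives, rose by 1.93 ± 0.077 SE and 1.77 ± 0.065 SE on the equal-median scale (limma adjusted p = 7.563e-11 and 3.309e-11). MRPS25 read 228 and 202 in low-Myc, 208 and 216 in mid-Myc, and 724 and 759 in high-Myc. MRPS26 read 225 and 218 in low-Myc, 256 and 261 in mid-Myc, and 695 and 681 in high-Myc. The MRPS26 arrays fell into 3 separate levels, whereas those of MRPS25 overlapped between low-Myc and mid-Myc. The other probe sets of MRPS25 gave lower equal-median rises at 24 h, of 1.67, 1.40, 0.42 and 1.74. MRPS2, the relative of bacterial S2, read 197 and 192 in low-Myc, 224 and 205 in mid-Myc, and 564 and 586 in high-Myc. It rose by 1.70 ± 0.070 SE on the equal-median scale (limma adjusted p = 8.989e-11).

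MRPS6, related to bacterial S6, was the lowest of the small subunit. It read 515 and 516 in low-Myc, 447 and 482 in mid-Myc, and 405 and 413 in high-Myc. As deposited, the 3 groups did not overlap and high-Myc was lowest. Per cell MRPS6 was 1.94-fold higher at 24 h, and on the equal-median scale it differed by -0.20 ± 0.066 SE (limma adjusted p = 0.0186). The lower call was lost without low-Myc replicate 1 (adjusted p = 0.0678), without low-Myc replicate 2 (0.055) and without high-Myc replicate 1 (0.0949). MRPS14 was the third of the lowest members by its brightest probe set, but another of its probe sets gave the opposite sign, and its values are not given.

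The 3 MRPS18 genes are paralogues related to bacterial S18, and in structures of the ribosome MRPS18A sits in the large subunit while MRPS18B and MRPS18C sit in the small one. MRPS18A read 333 and 331 in low-Myc, 290.3 and 332 in mid-Myc, and 359 and 403 in high-Myc. MRPS18B read 642 and 646 in low-Myc, 617 and 606 in mid-Myc, and 996 and 991 in high-Myc. MRPS18C read 733 and 734 in low-Myc, 792 and 782 in mid-Myc, and 1134 and 1163 in high-Myc. In all 3 the high-Myc arrays were the highest. Equal-median rises were 0.33 ± 0.085 SE for MRPS18A (limma adjusted p = 0.0036), 0.76 ± 0.053 SE for MRPS18B and 0.79 ± 0.053 SE for MRPS18C (adjusted p = 1.811e-08 and 1.189e-08). The MRPS18A call was lost with the tested genes as the centre (0.13, adjusted p = 0.177) and under quantile normalization (0.14, adjusted p = 0.153).

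**Figure D2:**
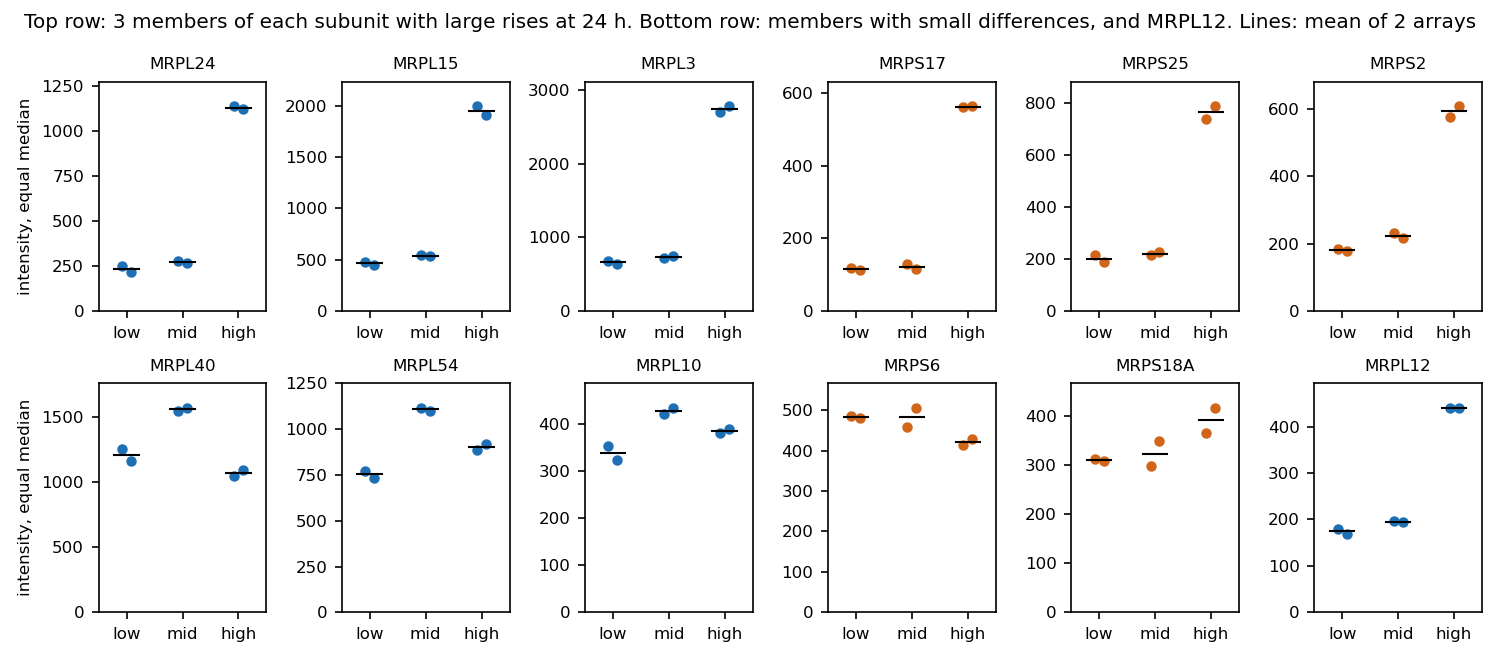
Intensity after centring each array on its median (vertical axis, linear, from 0, a separate range in each panel) on the 2 arrays of each group (points) with their mean (line), for 12 members. In the top row the high-Myc arrays stand far above the rest, while in the bottom row MRPL40 and MRPL54 are highest in mid-Myc, MRPS6 is lowest in high-Myc and MRPL12 shows the course of the top row.

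Both subunits rose. The 48 large-subunit genes had a 24 h median of 1.01 on the equal-median scale (47 higher, 1 lower) and the 28 small-subunit genes one of 1.07 (27 higher, 1 lower). The large subunit was thus -0.06 from the small one on each scale, with no test of that difference. With probe sets averaged it was -0.16 on each scale, and without single arrays it ran from -0.113 to -0.058 (equal median). On the equal-median scale the top 10% of all genes held 19 large-subunit genes (39.6%) and 16 small-subunit genes (57.1%). That top 10% started at 1.055, between the medians of the 2 subunits. Per cell the shares were 52.1% and 57.1%. From 1 h to 24 h they were 41.7% and 42.9% on the equal-median scale, and 52.1% and 42.9% per cell.

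Members with a bacterial relative and those found in mitochondria alone were described separately, with MRPS18A and MRPS18B counted among the latter. In the large subunit the 30 genes with a bacterial relative had an equal-median 24 h median of 1.10 and the 18 mitochondria-specific ones 0.83. In the small subunit the order was the other way, with 1.07 for 16 genes and 1.17 for 12. The quartiles of the large-subunit groups, 0.86 to 1.60 and 0.54 to 1.03, overlapped.

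The size of the rise was also set beside the promoter letters. The 9 members with CACGTG had an equal-median 24 h median of 1.02 and the 59 without it 1.01. MRPL36 and MRPS2, printed above, were at the upper end of the 9, and MRPL49, with 0.27, was the lowest. The 29 members with CCGGAAG had a median of 0.86 and the 39 without it 1.20, with an upper quartile of 1.03 in the former and a lower quartile of 0.85 in the latter. Those with AAGATGGCG had 0.97 (n = 13) and those without it 1.02 (n = 55). Over all tested genes with a window the medians were 0.171 with CACGTG and 0.055 without it. For CCGGAAG they were 0.18 and 0.037, the opposite order to that in the members, and for AAGATGGCG 0.238 and 0.059. All these medians are descriptions, and no difference between them was tested.

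**Figure D3:**
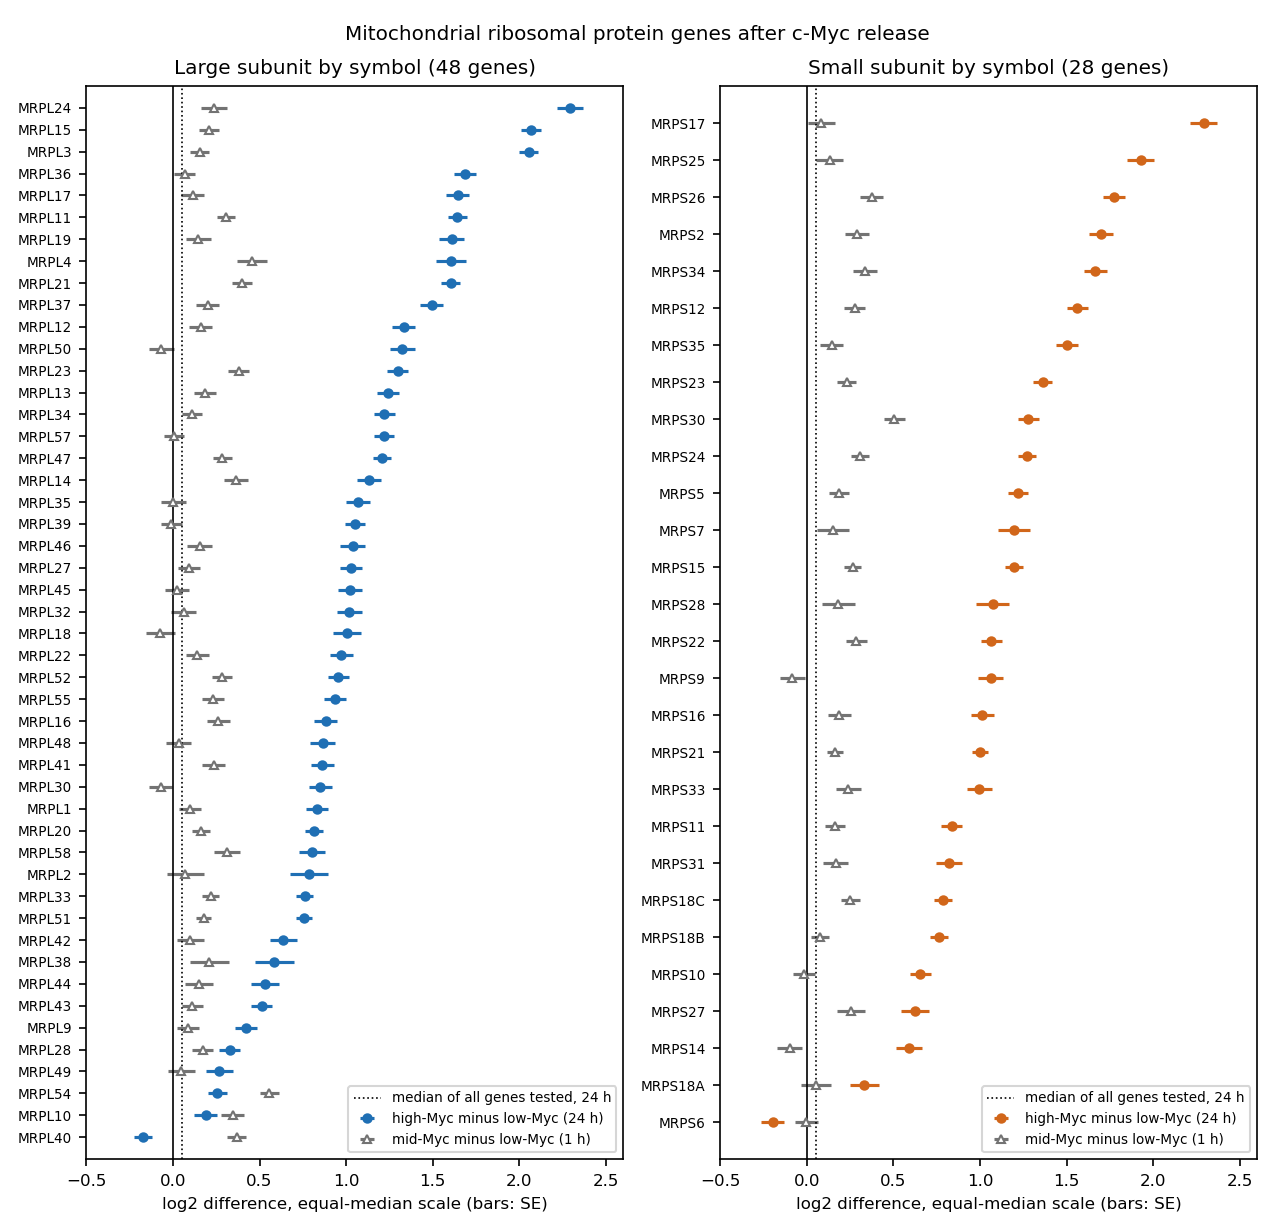
Log2 difference on the equal-median scale (horizontal axis) for each of the 76 members, with large-subunit genes on the left and small-subunit genes on the right. Filled circles are high-Myc minus low-Myc, open triangles mid-Myc minus low-Myc and bars SE of the limma fit. At 24 h the members run from -0.20 to 2.29, with all but MRPL40 and MRPS6 above 0, while at 1 h none passes 0.56.

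One hour after release the members had moved little. Per cell, 73 of 76 were called higher in limma (62.4% of all genes tested were) and 0 lower (0.697% of all). The exceptions were MRPL18, MRPL50 and MRPS14. With 1 ERCC factor per array in place of the curve 60 were called higher, and in a fit of these 2 groups alone 70. The median was 0.39, or 1.31-fold, against 0.30 for all genes and 0.38 for genes of the members' middle brightness. Of the genes of the members' middle brightness, 90.7% were called higher per cell and 0.556% lower. No member reached 2-fold.

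On the equal-median scale 37 of 76 were called higher at 1 h (25.7% of all genes tested were) and 0 lower (3.39% of all), with a median of 0.17 against 0.09 for all genes and 0.15 for genes of like brightness. Of the genes of like brightness, 42.4% were called higher on this scale and 2.88% lower. Under quantile normalization the count of members became 9 higher and 5 lower. With the tested genes as the centre it was 18 and 1, and for intensities as deposited 12 and 5. It was also 20 without low-Myc replicate 2, 24 without mid-Myc replicate 1 and 23 without mid-Myc replicate 2. As deposited, both mid-Myc arrays lay above both low-Myc arrays for 25 members, below them for 16, and overlapped for 35. The same split was not counted over all genes, so nothing particular to the members is read from it.

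MRPL54 rose most in the first hour, by 0.56 ± 0.054 SE on the equal-median scale (limma adjusted p = 1.327e-05) and 1.69-fold per cell. MRPS30, which despite its symbol belongs to the large subunit in ribosome structures, read 297 and 303 in low-Myc, 386 and 382 in mid-Myc, and 662 and 660.2 in high-Myc. Its arrays formed 3 separate levels, and it rose by 0.51 ± 0.060 SE at 1 h (adjusted p = 5.777e-05). MRPL21, related to bacterial L21, read 468 and 449 in low-Myc, 547 and 542 in mid-Myc, and 1288 and 1241 in high-Myc. It rose by 0.40 ± 0.057 SE at 1 h (limma adjusted p = 0.00022) and by 1.60 ± 0.057 SE at 24 h. MRPL40 rose by 0.37 ± 0.054 SE at 1 h (limma adjusted p = 0.00027), the opposite sign to its 24 h difference. MRPL4 was among the 4 highest by its brightest probe set, but its other probe sets gave the opposite sign.

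The lowest members at 1 h were MRPS14, MRPS9, MRPL18 and MRPL30. MRPS9, related to bacterial S9, read 303 and 284 in low-Myc, 249.7 and 249.8 in mid-Myc, and 591 and 525 in high-Myc. Its equal-median difference at 1 h was -0.08 (limma adjusted p = 0.429), which became a lower call under quantile normalization (-0.23, adjusted p = 0.0377) and as deposited (-0.23, adjusted p = 0.0366). Per cell its call as higher (0.16, adjusted p = 0.0492) was lost in 8 alternatives, among them leaving out any single low-Myc or mid-Myc array. At 24 h MRPS9 rose by 1.06 ± 0.072 SE on the equal-median scale. MRPL18, whose bacterial relative binds 5S rRNA, read 559 and 514 in low-Myc, 428 and 494 in mid-Myc, and 1025 and 933 in high-Myc. It differed by -0.07 (limma adjusted p = 0.551) at 1 h and rose by 1.01 ± 0.081 SE at 24 h. In both genes the mid-Myc arrays were the lowest as deposited and the high-Myc arrays the highest. The probe sets of MRPL30 differed in sign at 1 h, so its value is not given.

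Most of the rise came between 1 h and 24 h. From mid-Myc to high-Myc, all 76 of 76 members had a higher per-cell level by limma's call (81.7% of all genes tested had) and 0 a lower one (6.57% of all), with a median of 1.75, or 3.37-fold, against 0.71 for all genes. On the equal-median scale 72 were higher (33.3% of all) and 3 lower (30.9% of all), with a median of 0.89 against 0.02 for all genes. The 3 were MRPL40, MRPL54 and MRPS6, and MRPL10 differed by -0.15 without a call (limma adjusted p = 0.0582). Under 7 alternatives MRPL10 was called lower, with values from -0.15 to -0.24 and adjusted p from 0.00232 (tested genes as the centre) to 0.0474 (60th percentile filter).

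MRPL40 fell by 0.54 ± 0.054 SE over this interval on the equal-median scale (limma adjusted p = 7.611e-07) and MRPL54 by 0.30 ± 0.054 SE (adjusted p = 0.00024). Both genes had risen in the first hour on the same scale. Per cell they were 1.23-fold and 1.49-fold higher at 24 h than at 1 h, and with 1 ERCC factor per array in place of the curve the MRPL40 value was 0.02 (adjusted p = 0.727). MRPS6 fell by 0.19 ± 0.066 SE (limma adjusted p = 0.0198), a call lost without high-Myc replicate 1 (adjusted p = 0.0999) and without mid-Myc replicate 2 (0.201). MRPS17 rose most over the interval, by 2.21 ± 0.078 SE (limma adjusted p = 2.555e-11).

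The large-subunit median exceeded the small-subunit one over this interval, by 0.07 on the per-cell scale and 0.04 on the equal-median one. With MRPS18A and MRPS30 counted in the large subunit, as in the structures, these became -0.00 and -0.05. At 1 h the large subunit was -0.04 from the small one per cell, and -0.03 relative to the median. The sign over the later interval thus depended on how these genes were assigned.

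**Figure D4:**
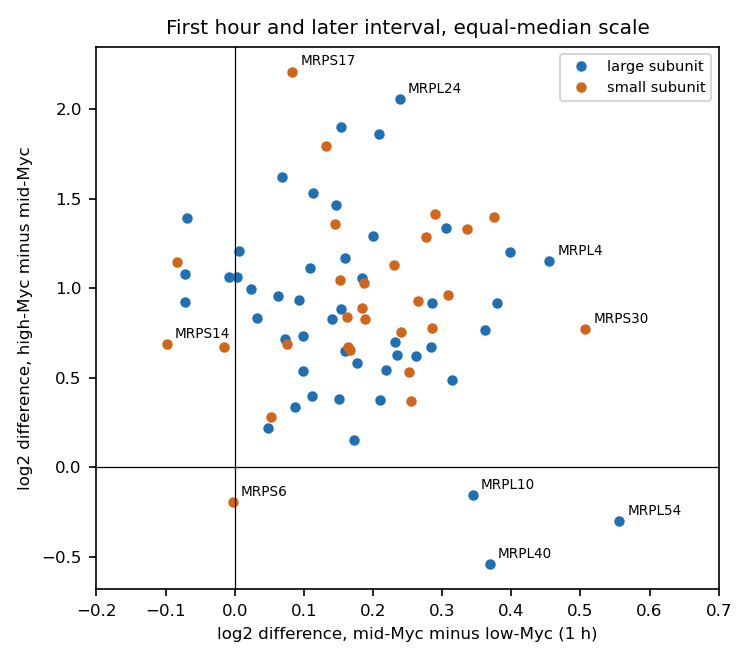
Log2 difference of mid-Myc minus low-Myc (horizontal axis) and of high-Myc minus mid-Myc (vertical axis) on the equal-median scale for the 76 members, 1 point each. The axes share the mid-Myc arrays, so no relation is read from the cloud. Most members lie high above the horizontal line with small values in the first hour, while MRPL40, MRPL54, MRPL10 and MRPS6 lie below it.

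The rest of the machinery was followed in lists chosen by function. Of 4 mitochondrial ribosomal proteins named otherwise, all rose at 24 h on the equal-median scale, where 37.7% of all genes tested were higher and 26% lower: DAP3 (0.80), CHCHD1 (1.07), PTCD3 (1.23) and GADD45GIP1 (1.54). Of 14 translation factors 12 were higher and 1 lower, with a median of 1.05. SLIRP, which stabilises mitochondrial messages, rose by 1.79 and the elongation factor TUFM by 1.64. Relative to the median the release factor MTRF1 fell by 0.25 (limma adjusted p = 0.00785). Per cell all 14 were called higher (90.8% of all genes tested were), MTRF1 by 0.84. Of 28 genes of ribosome assembly and rRNA modification 24 were higher and 0 lower, with a median of 0.92. C1QBP rose by 1.95 and TFB2M by 1.92, and the rRNA-processing protein YBEY stood at -0.00. Per cell all 28 of this list were called higher.

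Another list held 18 tested genes for mitochondrial aminoacyl-tRNA synthetases and the related amidotransferase. At 24 h 15 were higher and 1 lower on the equal-median scale (37.7% and 26% of all genes tested were). Their median was 0.81. MARS2, which charges the methionyl tRNA, rose by 2.61 at 24 h and by 1.26 at 1 h, a larger first-hour value than that of any of the 76 members. EARS2 rose by 2.04, and QRSL1, a subunit of the amidotransferase, fell by 0.96 relative to the median. Per cell all 18 were called higher (90.8% of all genes tested were), QRSL1 by 0.18. Of 9 genes of mitochondrial DNA replication and transcription 8 were higher and 1 lower, with a median of 1.18. The helicase TWNK rose by 2.15, the topoisomerase TOP1MT by 1.70, and the exonuclease MGME1 fell by 0.66 relative to the median. Per cell all 9 were called higher, MGME1 by 0.34.

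Proteins of the cytosolic ribosome, which makes the members themselves, gave other values. At 24 h 62 of its 71 tested protein genes were called higher on the equal-median scale (37.7% of all genes) and 0 lower (26% of all), with a median of 0.24, and per cell the median was 0.84, below the 0.97 of all genes. At 1 h 67 of 71 were higher (25.7% of all genes), with an equal-median median of 0.23, above the 0.17 of the mitochondrial members. From 1 h to 24 h the cytosolic median was -0.01 (18 higher and 24 lower of 71, against 33.3% and 30.9% of all genes) and the mitochondrial one 0.89. The 24 h median of the list thus lay above that of all genes on the equal-median scale (0.24 against 0.05) and below it per cell. RPL35A, with a rise of 2.06 at 24 h, and RPL27A, with 1.13, were the highest of the cytosolic list. Their probe sets had mean intensities of 739 and 79.9. The part of brightness and of the ERCC curve in the values of this list was not tested. The difference between the lists was not tested, and many cytosolic ribosomal protein genes have pseudogene copies that probe sets can also match.

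Of the members, 45 had more than 1 probe set, and in 42 of them other probe sets also passed the filter. These all had the sign of the one used at 24 h for 41 of 42 members per cell and for 38 of 42 relative to the median. At 1 h the counts were 38 and 28. The exceptions on the equal-median scale at 24 h were MRPL9, MRPL20, MRPL43 and MRPS14, and MRPL9 differed per cell too. Of the probe sets used, 16 carried the s_at or x_at suffix of probes shared between transcripts.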

How the data were processed

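The deposited values are linear probe set intensities of 6 arrays, and per the submitters' processing notes the authors used MAS5. Its version and its scaling target were not given in the sources used here, and no detection calls were used. Symbols from the platform annotation were updated through Entrez identifiers (45208 of 45278 probe sets with 1 symbol), and probe sets with several symbols were not assigned. The per-cell scale subtracted, on each array, a loess curve (robust, degree 1, span 0.7) fitted to the 100 ERCC probe sets. The equal-median scale subtracted the median of the human probe sets. Genes whose brightest probe set had a mean above the 40th percentile of human probe sets (33.8) were tested, 12198 in all, with limma 3.58.1 (R 4.3.3), a variance trend and Benjamini-Hochberg adjustment at 0.05. The number of arrays limits the precision: with 2 arrays against 2, an exact permutation p cannot go below 0.333.

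Named are, per subunit, the 4 members highest and 3 lowest at 24 h and, over both subunits, the 4 highest and 4 lowest at 1 h on the equal-median scale, the MRPS18 paralogues, MRPL12, MYC and, in each function list, the 2 highest and the lowest gene. Members whose probe sets differ in sign are only named, and 1 lowest gene of the cytosolic list is not reported here. MRPL49 and MRPL17 were named for their promoters. The members, lists and motifs were chosen with earlier results of these data known. The steps were run on simulated data with known changes. There the ERCC probe sets shifted equally at every brightness, so a shift that varies with brightness was not simulated. Alternatives changed the filter, probe set summary, pseudocount, variance trend, ERCC curve, centring, samples fitted, subunit assignment and a block on replicate number, and left out each array.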

Additional observations from a re-analysis of the deposited data

How the results depend on the processing

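Per cell, 76 members were higher and 0 lower at 24 h against 0 h under every alternative but the 60th percentile filter, which left 75 members to test. Leaving out single arrays also gave 76 and 0, and 72 to 74 higher on the equal-median scale. Members lower there numbered 0 to 2 without single arrays and 1 without the variance trend. From 1 h to 24 h the counts without single arrays were 69 to 72 higher and 2 to 4 lower (equal median), and 76 and 0 per cell. At 1 h they were 69 to 72 higher per cell (60 with 1 ERCC factor, 70 in a fit of the 2 groups alone) and 20 to 36 higher on the equal-median scale, with 0 lower on both. The 1 h equal-median count of members higher was 22 without the variance trend, 9 with quantile normalization, 18 with the tested genes as the centre, and 12 as deposited, with 5, 1 and 5 lower in the last 3 and 1 lower with probe sets averaged. The subunit difference moved more. For 24 h against 0 h it was -0.16 per cell and -0.16 (equal median) with probe sets averaged, -0.085 with quantile normalization, and -0.093 to -0.059 and -0.113 to -0.058 without single arrays. For 1 h it was -0.028 per cell with the 60th percentile filter, -0.029 with 1 ERCC factor and -0.031 with span 0.4, and ranged from -0.044 to -0.023 (per cell) and -0.034 to -0.017 (equal median) without single arrays. From 1 h to 24 h per cell it was -0.002 by structure, 0.084 with the 60th percentile filter, 0.003 with probe sets averaged, 0.084 with pseudocount 16, 0.036 with 1 ERCC factor and 0.085 with span 0.4 (0.044 to 0.076 without single arrays). On the equal-median scale it was -0.052 by structure, -0.05 with probe sets averaged, 0.052 with the 60th percentile filter and 0.057 with pseudocount 16 (0.005 to 0.036 without single arrays). MRPL10 at 24 h turned to -0.01 with quantile normalization and -0.014 with the tested genes as the centre, MRPL3 at 1 h to -0.02 with quantile normalization, and MYC at 1 h to -0.148 (quantile), -0.02 (tested genes as the centre) and -0.055 as deposited. The cause was not tested.

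Same-numbered arrays did not deviate together (correlations 0.002, -0.003 and -0.002), so the numbers were not used as pairs. With 2 arrays per group this cannot show whether same-numbered samples were handled together. With the replicate number as a block, 74 members were higher and 2 lower at 24 h on the equal-median scale and 37 higher at 1 h, and 72 were higher per cell at 1 h.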

Other observations

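Probe sets listed to a member and to another gene were left out of the counts. On the equal-median scale at 24 h, the probe set of MRPS17 and ZNF713 stood at 2.46, against 2.29 for the one used for MRPS17. That of MRPS28 and TPD52 stood at 1.24, against 1.07 for MRPS28. Those of MRPL33 and BABAM2 stood at 0.33 and 0.25, against 0.76 for MRPL33. MRPL45 with MRPL45P2 stood at 1.01, against 1.02 for MRPL45, and MRPS16 with DNAJC9 at 0.89, against 1.01 for MRPS16. MRPL53, the only gene of the family without a probe set of its own, shared its brighter one (mean intensity 1144) with CCDC142. That probe set stood at 0.22 at 1 h and -0.60 at 24 h on the equal-median scale, and at 0.40 and 0.43 per cell. The dimmer one (mean intensity 45.9) stood at 0.19 at 24 h. Which of the 2 genes these signals come from was not tested.

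The antisense gene MRPL20-AS1, which the counts leave out, differed by 0.09 ± 0.075 SE at 24 h on the equal-median scale (limma adjusted p = 0.304). It and the shared probe sets lie outside the rule for named genes and were chosen after their values were seen.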
